A study of Mus musculus with 8 samples.

Results

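GABA-A receptors are pentameric chloride channels, and the 7 genes described here encode subunits of them: Gabra2, Gabra3, Gabra4 and Gabra5 (alpha), Gabrb1 and Gabrb2 (beta) and Gabrd (delta). They were chosen by symbol, as rows of the deposited table whose Ensembl identifier carries one of these names, and all 7 were found among its 22337 genes. The data are RNA-seq profiles of the nucleus accumbens, the ventral part of the striatum, from male C57BL/6 mice. There were 4 libraries from mice given saline and 4 from mice given morphine, and the series title describes the morphine exposure as chronic. The sources used here give no age, dose or schedule. They do not say whether each replicate was its own animal, so p-values cover only library-to-library spread, which may be technical.

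GABA-A receptors carry most fast inhibition in the brain. Alpha and beta subunits form the GABA binding sites, and the alpha subunit sets much of the drug sensitivity and location of the receptor. Receptors with a gamma subunit sit largely at synapses and give brief currents, with alpha2 a common partner in striatal projection neurons. Receptors with the delta subunit, paired in the forebrain mainly with alpha4, sit outside synapses, respond to low ambient GABA with a tonic current and are sensitive to neurosteroids. Alpha5 receptors are also found largely outside synapses. In the striatum nearly all projection neurons are themselves GABAergic, and they also receive GABA from their neighbours and from interneurons.

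Values are FPKM, fragment counts scaled by the authors for transcript length and sequencing yield, so levels can be set side by side between genes. The sum over all genes ran from 480004 to 540104 FPKM per library. Read depth is unknown, because the values show no whole-read steps and carry no library total. Each change is the morphine mean minus the saline mean of log2(FPKM + 1), and adjusted p-values are from limma with Benjamini-Hochberg adjustment over the 12536 genes tested. Mitochondrially encoded genes took 9.09 to 12.6% of the summed FPKM in saline and 6.09 to 7.94% in morphine.

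The libraries also differed in markers of striatal and of cortical neurons. The mean level of 17 markers of striatal projection neurons was 7.36 (log2 scale) in saline replicate 3. It ran from 5.10 to 5.39 in the rest of the saline group and from 3.52 to 4.00 under morphine. The summed level of that list was 6251 FPKM in saline replicate 3, 1339 to 1615 in the other saline libraries and 499.2 to 611.3 in morphine. Of the 17 markers 9 passed as lower, beside 1.48% of all genes tested, and none was at 0 in any library. The log2 change was negative in 16 of them, with a median of −2.27. An unadjusted p under 0.05 (limma) was seen in 15, beside 20.1% of all genes tested. Penk, the enkephalin precursor gene and the most abundant of them, was at 1683 FPKM in saline replicate 3, 353.3 to 467.1 in the other saline libraries and 51.5 to 214.8 in morphine. The summed level of 12 markers of cortical glutamatergic neurons ran the other way. It was 151.1 FPKM in saline replicate 3, 369.7 to 409.3 in the other saline libraries and 418.6 to 502.4 in morphine, and no marker was at 0. None of the 11 tested cortical markers passed (4 at an unadjusted p under 0.05, limma). Their log2 change was positive in 9 and negative in 2, with a median of 0.50. Mef2c, the most abundant of them and also expressed in other neurons, was at 71.6 FPKM in saline replicate 3, 145.2 to 172.4 in the other saline libraries and 160.7 to 208.4 in morphine. Saline replicate 3 therefore stands apart from the other libraries, and several values below are also given without it. The striatal marker levels of the groups were still apart without that library.

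Gabrd, the delta subunit gene of tonic receptors, fell with morphine and was the member that passed the test. 1 of the 7 members passed and it was lower, where 2.52% of all genes tested passed in either direction and 1.48% passed as lower and 1.04% as higher. The other 6 members did not pass (adjusted p between 0.118 and 0.944), and the median log2 change of the 7 was 0.02, beside 0.01 for all genes tested. At an unadjusted p under 0.05 there were 4 members, beside 20.1% of all genes. In 3 members, Gabra4, Gabra5 and Gabrd, the 2 groups did not overlap, an arrangement seen in 12.7% of all genes (6.56% with morphine higher and 6.1% with morphine lower).

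**Figure D1:**
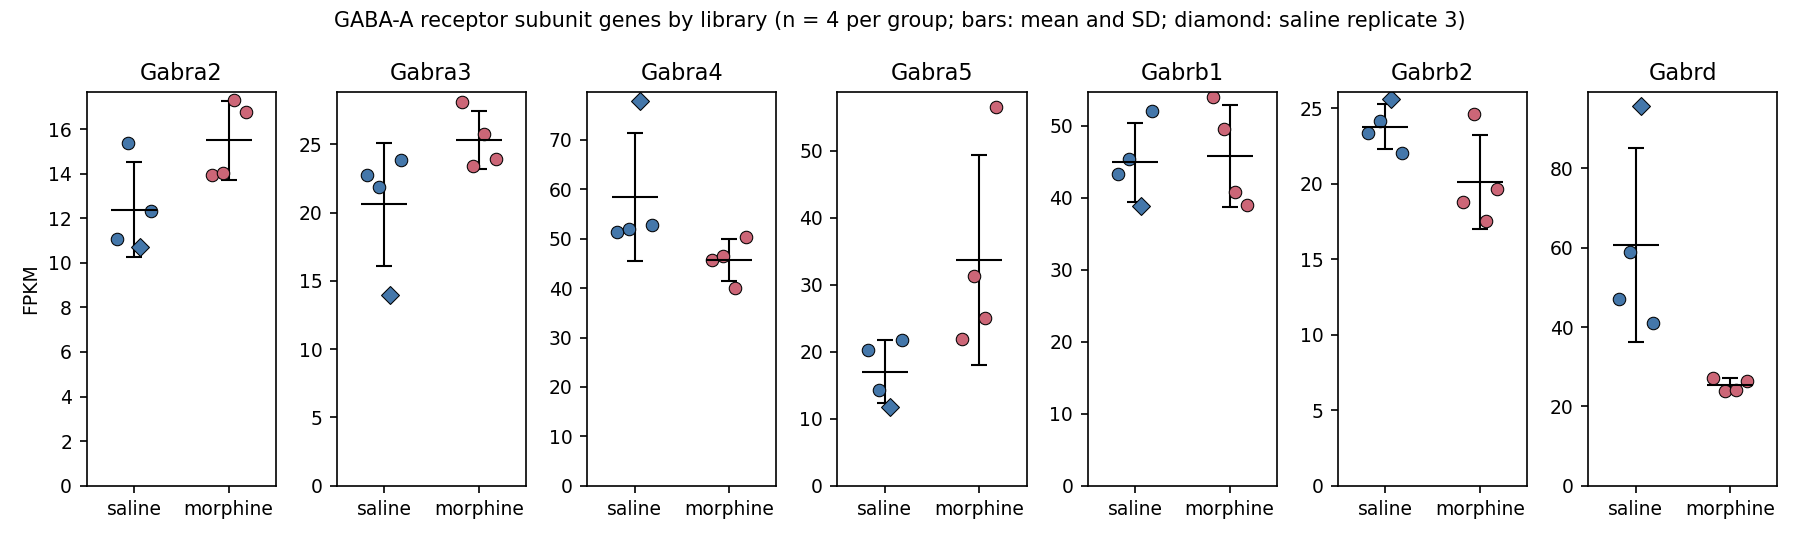
FPKM of each of the 7 subunit genes in each library (points), with the mean and SD of the 4 saline and 4 morphine libraries; the diamond is saline replicate 3. Gabrd lies from 41.05 to 95.7 in saline and from 23.8 to 27.3 under morphine, while Gabrb1 covers nearly the same range in both groups.

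Gabrd (ENSMUSG00000029054, chromosome 4, 155384980 to 155398112, minus strand, GRCm38) had 47.1, 58.9, 95.7 and 41.05 FPKM in saline replicates 1 to 4 and 27.3, 23.8, 24.2 and 26.4 in morphine replicates 1 to 4. Every morphine value lay below every saline value, and the morphine libraries were close together while the saline libraries spread widely, with replicate 3 the highest. The means were 60.7 ± 24.5 and 25.4 ± 1.68 FPKM (SD, n = 4 each), so the mean fell by 58.1%. The log2 change was −1.15 ± 0.22 (SE), with a 95% interval from −1.63 to −0.66 (limma adjusted p = 0.0319). An exact two-sided permutation test over the 70 assignments of the libraries gave p = 0.0286, the smallest it can give for 4 against 4. In bulk tissue, fewer cells of a type and less RNA per cell cannot be told apart, for this and for every gene below. Among the 186 genes that passed as lower, 66 had a larger fall.

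The call of Gabrd did not rest on saline replicate 3. Without that library its log2 change was −0.91 (adjusted p = 0.0105), and the other saline values, 41.05 to 58.9 FPKM, were still all above the morphine values. Without saline replicate 4 the change was −1.31 (adjusted p = 0.0178). The call was lost without saline replicate 1 (adjusted p = 0.0548), saline replicate 2 (0.0854), morphine replicate 1 (0.061), morphine replicate 2 (0.0714), morphine replicate 3 (0.111) or morphine replicate 4 (0.0829), with log2 changes between −1.24 and −1.12. In those 6 fits limma called between 0 and 102 of all genes. With the mean of the striatal markers as a covariate the log2 change of Gabrd was −0.27 ± 0.25 (SE, adjusted p = 0.764), and 1 gene of all those tested was called. With the mean of the cortical markers as a covariate it was −0.78 ± 0.15 (SE, adjusted p = 0.045).

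**Figure D2:**
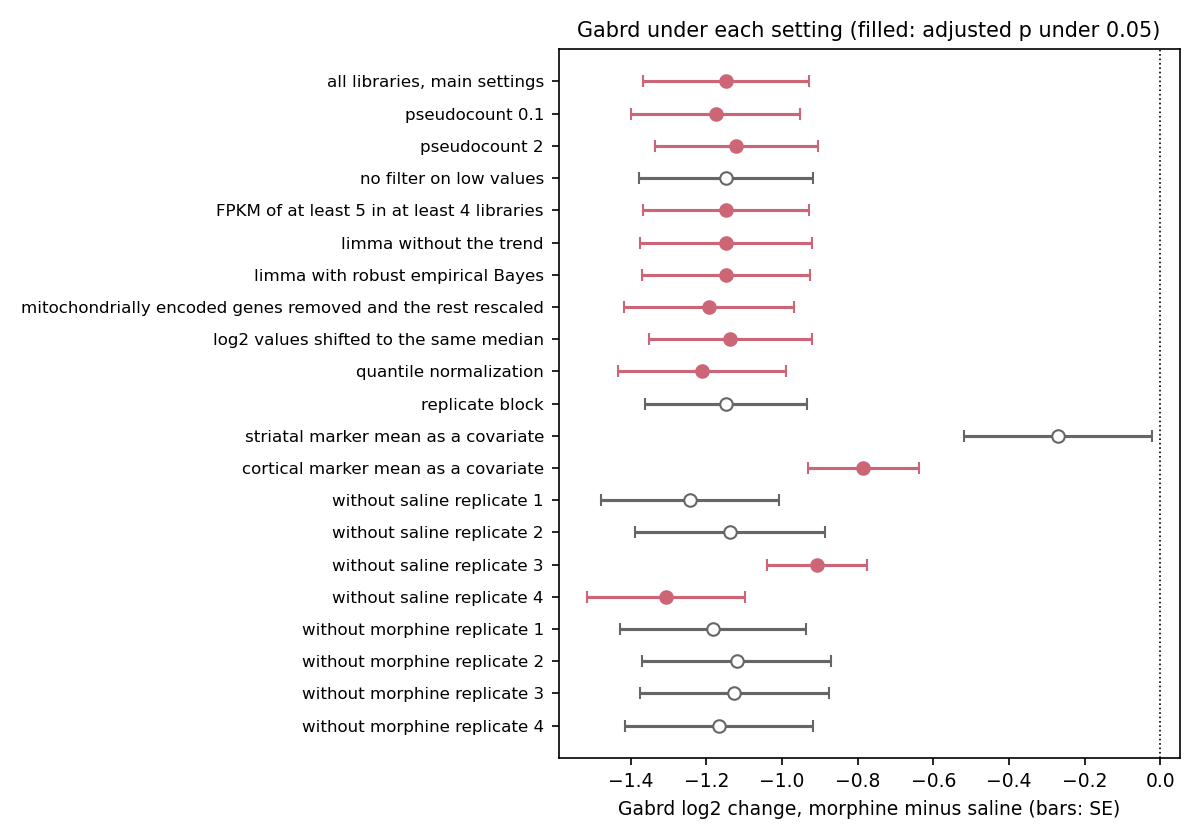
Log2 change of Gabrd, morphine minus saline, under each processing setting and with each library left out; bars are SE and filled points have an adjusted p under 0.05. The change stays between −1.31 and −0.78 except with the striatal marker mean as a covariate, where it is −0.27.

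Gabra4, the alpha subunit that partners delta in forebrain tonic receptors, had lower values in every morphine library but did not pass. It lies at chromosome 5, 71569749 to 71658308, minus strand (ENSMUSG00000029211, GRCm38). Its level was 51.4, 51.9, 77.8 and 52.8 FPKM in saline replicates 1 to 4 and 45.6, 46.5, 40.04 and 50.4 in morphine replicates 1 to 4. Saline replicate 3 stood well above the other saline libraries, which lay close together and just above the highest morphine library. The log2 change was −0.33 ± 0.15 (SE; 95% interval −0.65 to −0.01; limma adjusted p = 0.233). Without saline replicate 3 it was −0.19 (adjusted p = 0.375), and with the striatal covariate its sign changed, to 0.21 (adjusted p = 0.761).

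Gabra5, the alpha subunit of a separate class of largely extrasynaptic receptors, had higher values in every morphine library and did not pass either. It lies at chromosome 7, 57407672 to 57510059, minus strand (ENSMUSG00000055078, GRCm38). Its level was 20.2, 14.3, 11.8 and 21.8 FPKM in saline replicates 1 to 4 and 21.9, 31.3, 25.1 and 56.5 in morphine replicates 1 to 4. The highest saline and lowest morphine libraries were nearly equal, and morphine replicate 4 was far above the other morphine libraries. The means were 17.04 ± 4.74 and 33.7 ± 15.7 FPKM (SD, n = 4 each). The log2 change was 0.89 ± 0.28 (SE; 95% interval 0.26 to 1.51; limma adjusted p = 0.118). It was 0.61 without morphine replicate 4 (adjusted p = 0.201) and 0.73 without saline replicate 3 (adjusted p = 0.205). With the striatal covariate it was 0.26 (adjusted p = 0.902).

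Gabra2 and Gabra3, the alpha subunits of mainly synaptic receptors, had overlapping groups. Gabra2 (ENSMUSG00000000560, chromosome 5, 70957597 to 71095849, minus strand) had 11.1, 15.4, 10.7 and 12.3 FPKM in saline replicates 1 to 4 and 13.9, 14.0, 17.3 and 16.8 in morphine replicates 1 to 4. Saline replicate 2 lay within the morphine range and the other saline libraries below it. The log2 change was 0.31 ± 0.14 (SE; 95% interval 0.002 to 0.62; limma adjusted p = 0.245), and with the striatal covariate it was 0.03 (adjusted p = 0.989). Gabra3 (ENSMUSG00000031343, chromosome X, 72432681 to 72656848, minus strand) had 22.7, 21.9, 14.0 and 23.8 FPKM in saline replicates 1 to 4 and 28.1, 23.4, 25.8 and 23.9 in morphine replicates 1 to 4. Here saline replicate 3 was the lowest library, and the other saline values were at or just below the morphine range. The log2 change of Gabra3 was 0.31 ± 0.16 (SE; 95% interval −0.05 to 0.67; limma adjusted p = 0.316). It was 0.14 without saline replicate 3 (adjusted p = 0.534) and −0.27 with the striatal covariate (adjusted p = 0.725).

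The 2 beta subunit genes, whose products are part of nearly all GABA-A receptors, did not pass. Gabrb1 (ENSMUSG00000029212, chromosome 5, 71658113 to 72149037, plus strand) had 43.4, 45.4, 38.8 and 52.0 FPKM in saline replicates 1 to 4 and 53.9, 49.5, 40.9 and 39.0 in morphine replicates 1 to 4. The groups covered almost the same range, and the log2 change was 0.02 ± 0.13 (SE; 95% interval −0.27 to 0.32; limma adjusted p = 0.944). Gabrb2 (ENSMUSG00000007653, chromosome 11, 42419757 to 42629028, plus strand) had 23.3, 24.1, 25.6 and 22.02 FPKM in saline replicates 1 to 4 and 18.8, 24.6, 17.5 and 19.6 in morphine replicates 1 to 4. In morphine replicate 2 it lay within the saline range, and in the other morphine libraries below it. The log2 change of Gabrb2 was −0.24 ± 0.12 (SE; 95% interval −0.51 to 0.03; limma adjusted p = 0.304), and with the striatal covariate it was −0.13 (adjusted p = 0.899).

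**Figure D3:**
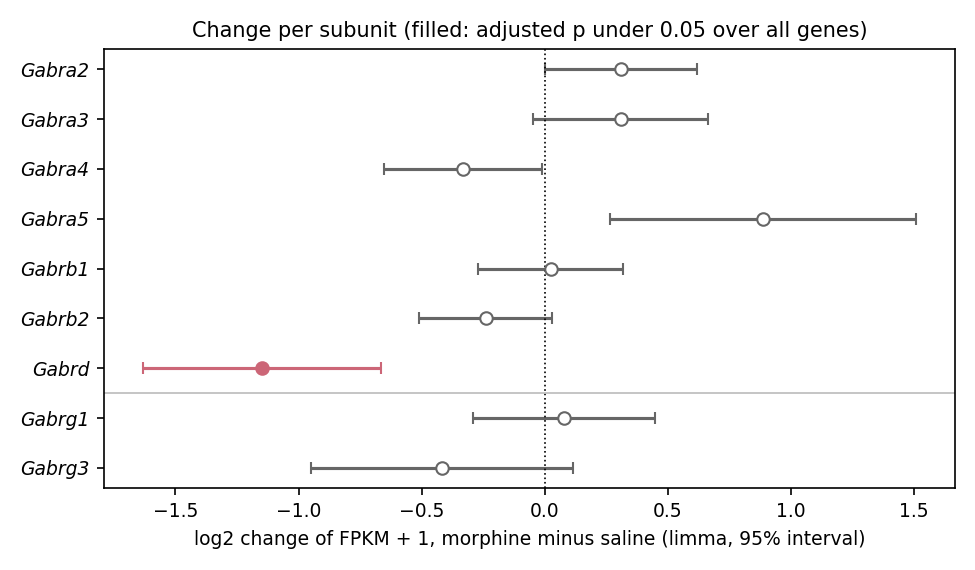
Log2 change of FPKM + 1, morphine minus saline, with its 95% interval from limma, for the 7 subunit genes and, below the line, the gamma subunit genes Gabrg1 and Gabrg3. The interval of Gabrd runs from −1.63 to −0.66 and is the farthest below 0.

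Gabra2, Gabra4 and Gabrb1 lie in 1 gene cluster on chromosome 5. Gabra2 and Gabra4 are both on the minus strand, with 473899 bases between them, and Gabra4 and Gabrb1 run in opposite directions with their first 196 bases overlapping. The protocol marks no strand, so reads in that overlap cannot be told apart. None of these cluster neighbours passed, with log2 changes of −0.33 for Gabra4, 0.02 for Gabrb1 and 0.31 for Gabra2. The sign was reversed for Gabrb1 under 7 of the 20 alternatives and for Gabra4 under 1. Upstream sequences are shown for Gabra2 and Gabra4, as cluster neighbours on the same strand, and for Gabra5, which had the highest log2 change of the 7. They are from a RefSeq promoter table on GRCm38.p6, in which 6 of the 7 members (all but Gabrd) were matched, and run 5′ to 3′ on the gene's strand, outside exons of the GENCODE annotation, so that of Gabra4 stops short of its start. Each was searched on both strands for an AP-1 site (TGANTCA), an Sp1 core (GGGCGG) and a TATA box (TATAAA), and capitals mark matches.
Gabra2, chr5:71095850-71096099, minus strand: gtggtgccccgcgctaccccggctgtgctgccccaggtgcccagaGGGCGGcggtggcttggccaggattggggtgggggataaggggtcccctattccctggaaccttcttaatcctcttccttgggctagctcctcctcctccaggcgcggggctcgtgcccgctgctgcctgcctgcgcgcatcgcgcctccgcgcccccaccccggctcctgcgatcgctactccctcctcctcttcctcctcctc
Gabra4, chr5:71658364-71658558, minus strand: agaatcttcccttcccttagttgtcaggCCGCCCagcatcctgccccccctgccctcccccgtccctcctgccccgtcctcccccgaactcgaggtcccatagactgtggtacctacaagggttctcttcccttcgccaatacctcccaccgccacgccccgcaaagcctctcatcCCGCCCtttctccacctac
Gabra5, chr7:57510060-57510309, minus strand: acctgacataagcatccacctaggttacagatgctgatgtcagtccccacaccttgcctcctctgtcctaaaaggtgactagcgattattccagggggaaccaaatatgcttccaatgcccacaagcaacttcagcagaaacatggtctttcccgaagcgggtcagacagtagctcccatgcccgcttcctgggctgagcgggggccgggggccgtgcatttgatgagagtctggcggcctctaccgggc

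The Gabra2 sequence held 1 Sp1 core, 205 bases before the annotated start. The Gabra4 sequence held 2, at 222 and 74 bases before the start, and the Gabra5 sequence held no match to any of the 3 motifs. An Sp1 core was present in 32.7% of the 250-base windows upstream of all 32851 starts in the RefSeq table, an AP-1 site in 6.75% and a TATA box in 12.4%. In the full 250 bases upstream, CpG dinucleotides numbered 18 for Gabra2, 12 for Gabra4 and 9 for Gabra5, where the median of all windows was 6. These matches describe the letters of the windows alone.

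The order of the 7 levels differed between the groups. In saline it was Gabrd (mean 60.7 FPKM), Gabra4 (58.5), Gabrb1 (44.9), Gabrb2 (23.8), Gabra3 (20.6), Gabra5 (17.04) and Gabra2 (12.4). The ranges of neighbours in that order overlapped except between Gabrb1 and Gabrb2. Gabrd was above Gabra4 in 2 of 4 saline libraries. Without saline replicate 3 these 2 changed places, with means of 52.03 FPKM for Gabra4 and 49 for Gabrd, and the order of the others was kept. In morphine the order was Gabrb1 (45.8 FPKM), Gabra4 (45.6), Gabra5 (33.7), Gabrd (25.4), Gabra3 (25.3), Gabrb2 (20.1) and Gabra2 (15.5). There the ranges of neighbours overlapped except between Gabrb2 and Gabra2.

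The balance among the subunits differed between the groups while their sum overlapped. The 7 genes summed to between 219.2 and 274.4 FPKM in saline and between 190.7 and 232.7 in morphine. Gabrd made up 18.2 to 34.9% of that sum in saline (18.2 to 25.4% without replicate 3) and 11.2 to 13.0% in morphine. The share of Gabra5 was 4.30 to 9.66% in saline (6.18 to 9.66% without replicate 3) and 10.5 to 24.3% in morphine. The share of Gabra4 was 22.4 to 28.4% in saline (22.4 to 23.5% without replicate 3) and 21.0 to 21.8% under morphine. The shares of Gabrb1, Gabrb2, Gabra2 and Gabra3 overlapped. These shares are descriptions without a test, and a fall of 1 gene raises the shares of the others.

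**Figure D4:**
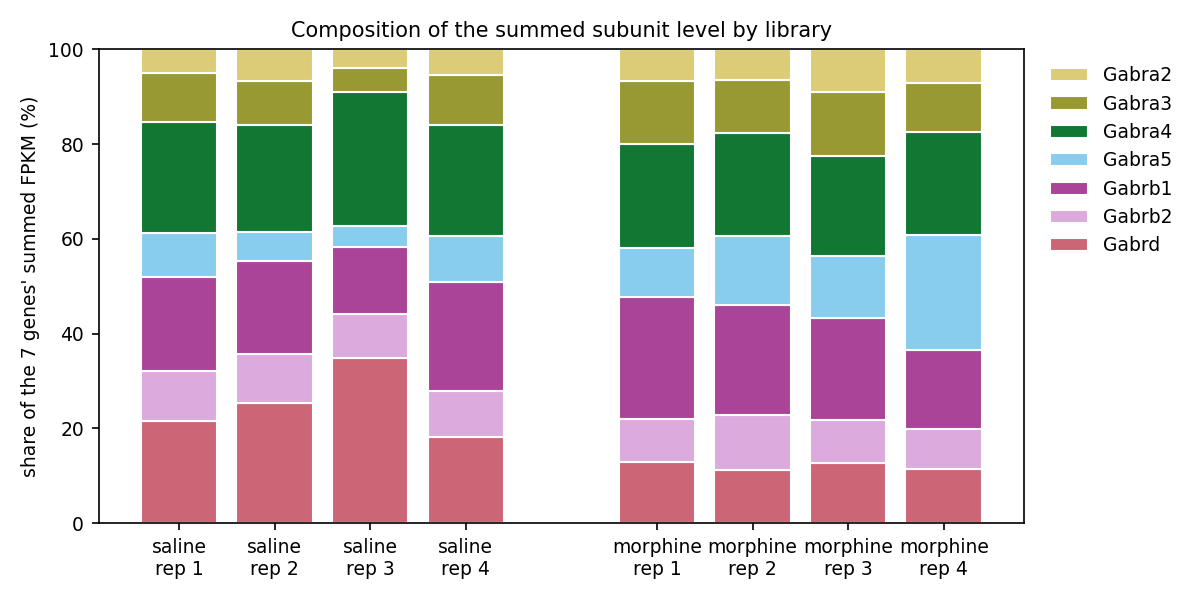
Share of each of the 7 subunit genes in their summed FPKM, in percent, for each saline and morphine library. The Gabrd segment, at the bottom, covers 18.2 to 34.9% in saline and 11.2 to 13.0% in morphine, and the Gabra5 segment is larger in every morphine library than in any saline library.

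Among the 4 alpha genes alone, Gabra4 was the largest in 7 of 8 libraries. It made up 48.8, 50.2, 68.1 and 47.6% of their summed FPKM in saline replicates 1 to 4 and 41.6, 40.4, 37.0 and 34.2% in morphine replicates 1 to 4. Gabra5 made up 19.2, 13.8, 10.3 and 19.7% in saline and 20.0, 27.1, 23.2 and 38.3% in morphine, and in morphine replicate 4 it exceeded Gabra4. The groups did not overlap in either share, also without saline replicate 3. Gabra2 and Gabra3 had overlapping shares, of 9.35 to 14.9% and 12.2 to 21.6% in saline and 11.3 to 16.0% and 16.2 to 25.7% in morphine. Gabrb2 made up 29.7 to 39.8% of the summed beta genes in saline and 25.8 to 33.5% in morphine, with overlap. The ratio of Gabrd to Gabra4, the main partners of forebrain tonic receptors, was 0.778 to 1.23 in saline (0.778 to 1.13 without replicate 3) and 0.513 to 0.604 in morphine.

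Saline replicate 3, with the highest striatal and lowest cortical marker levels, was also the highest or lowest of the 8 libraries for each of the 7 members. Against the mean of the other saline libraries it held 1.95 times the FPKM of Gabrd, 1.496 times that of Gabra4 and 1.11 times that of Gabrb2. It held 0.613 times that of Gabra3, 0.628 times that of Gabra5, 0.827 times that of Gabra2 and 0.828 times that of Gabrb1. It was the highest for Gabrd, Gabra4 and Gabrb2 and the lowest for Gabra2, Gabra3, Gabra5 and Gabrb1. The groups did not overlap in the striatal or in the cortical marker mean, so the covariate fits given above cannot tell marker level and group apart. The part of these marker levels in the differences was not tested.

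**Figure D5:**
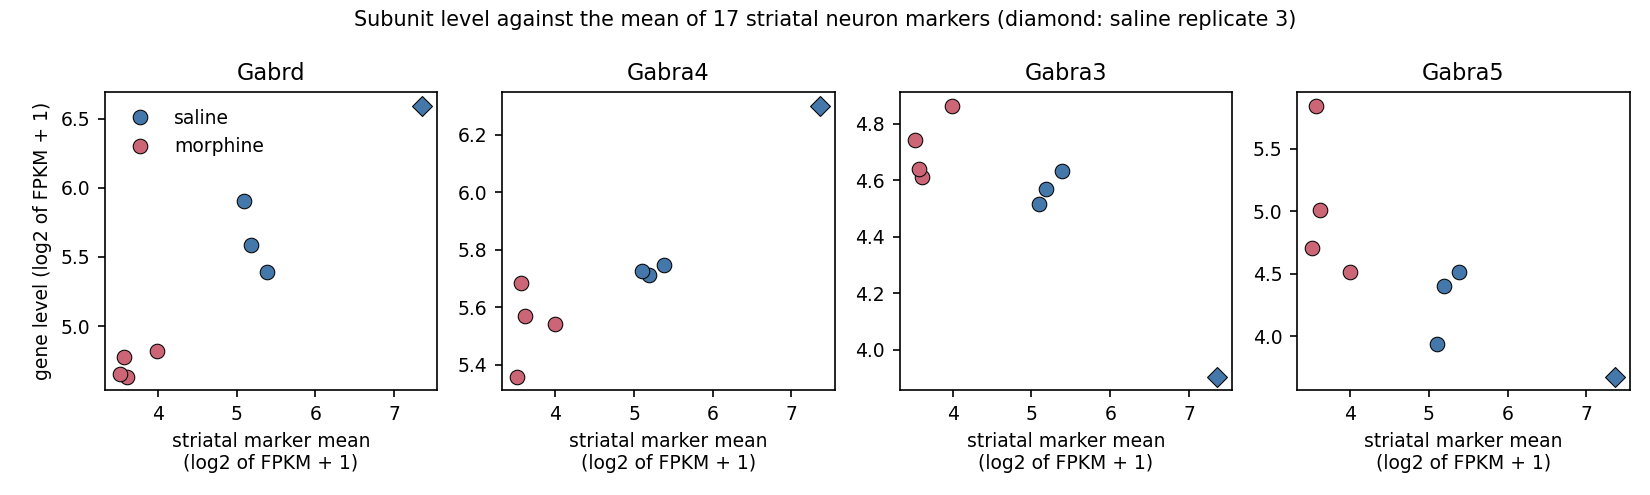
Level of Gabrd, Gabra4, Gabra3 and Gabra5 against the mean level of 17 striatal neuron markers, both as log2(FPKM + 1), for each saline and morphine library; the diamond is saline replicate 3. Saline replicate 3 lies at a marker mean of 7.36, the other saline libraries at 5.10 to 5.39 and the morphine libraries at 3.52 to 4.00, so marker level and group move together.

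For each member the tested genes with the closest profile were found by the root mean square difference of log2(FPKM + 1) over the 8 libraries, each gene centred on its own mean. For Gabrd, whose own profile had a root mean square of 0.661, they were Slc16a11 (difference 0.067), a transporter gene of the monocarboxylate family, Clic6 (0.13) and Mxra8 (0.171). The saline and morphine means of Slc16a11 were 12.7 and 4.84 FPKM (−1.17 on the log2 scale, limma adjusted p = 0.0289). That this is close to the change of Gabrd follows from how the gene was picked. For Gabra5 the differences were larger beside its own root mean square of 0.619: Grm2, a metabotropic glutamate receptor gene, at 0.166, Dlx1, an interneuron transcription factor gene, at 0.217, and Snx7 at 0.245. The closest to Gabra4 were Fzd4 (0.073), Grid1 (0.074) and Slc4a3 (0.086). Those closest to Gabra2 were Kcnip3 (0.062), Slitrk3 (0.080) and Mon1a (0.080), and those closest to Gabra3 were Lpgat1 (0.058), Cfap298 (0.066) and Ttc7b (0.072). For Gabrb1 they were Snrpa1 (0.059), Tmem167b (0.064) and Scd3 (0.067), and for Gabrb2 Clcc1 (0.054), Pex26 (0.056) and Ephx2 (0.056). Among the 21 pairs of members, Gabra4 and Gabrb2 were the closest (0.184) and Gabra5 and Gabrd the farthest apart (1.21).

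Of 9 further GABA-A subunit genes listed, 2 gamma subunit genes were tested, and 0 of them passed (0 at an unadjusted p under 0.05, limma). Gabrg3, a gamma subunit gene, had 4.98 to 10.97 FPKM in saline, highest in replicate 3, and 3.64 to 7.09 in morphine (log2 change −0.42 ± 0.24 SE, limma adjusted p = 0.366). Gabrg1, another gamma subunit gene, had 8.91 to 10.3 FPKM in saline and 7.24 to 13.4 in morphine (0.08 ± 0.17 SE, limma adjusted p = 0.834). The other 7, Gabra6, Gabre, Gabrp, Gabrq, Gabrr1, Gabrr2 and Gabrr3, stayed below 1 FPKM in all libraries, with a highest value of 0.87 for Gabrr2, and Gabrr3 was listed at 0 throughout.

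Of 28 genes that anchor, assemble or transport GABA-A receptors, 1 rose and 27 did not pass, with a median log2 change of −0.004. Of all genes tested 1.04% passed as higher. An unadjusted p under 0.05 (limma) was seen in 3 of the 28, beside 20.1% of all genes tested. Nsf, the ATPase that drives membrane fusion and receptor delivery, had 304.4, 269.6, 226.4 and 290.4 FPKM in saline replicates 1 to 4 and 416.1, 452.4, 383.6 and 365.6 in morphine replicates 1 to 4. All morphine values were above all saline values, as in 6.56% of all genes tested (log2 change 0.57 ± 0.12 SE, limma adjusted p = 0.0449). That call sat at the edge of the threshold: it was kept without saline replicate 4 (0.0472) and lost without each of the other 7 libraries (adjusted p between 0.0515 and 0.128), and with the striatal covariate the change was 0.28 (adjusted p = 0.689). Trak1, an adaptor for kinesin transport, and Slitrk3, an adhesion protein of inhibitory synapses, had log2 changes of 0.52 ± 0.18 (SE, limma adjusted p = 0.136) and 0.35 ± 0.12 (SE, limma adjusted p = 0.143). Gphn, the gephyrin scaffold gene of inhibitory synapses, picked with its values in view, lay at 23.6 to 28.5 FPKM in saline and at 19.7 to 23.2 in morphine (−0.23 ± 0.11 SE, limma adjusted p = 0.264).

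Genes of the chloride gradient and of neurosteroid supply, which set the direction and strength of GABA-A currents, did not pass. Of 10 tested, 0 passed and 1 had an unadjusted p under 0.05 (limma), with a median log2 change of −0.12. Of all genes tested 2.52% passed in either direction and 20.1% had an unadjusted p under 0.05. Tspo, the mitochondrial translocator protein gene linked to neurosteroid synthesis and also expressed in glia, had 9.02 to 18.5 FPKM in saline and 4.42 to 9.33 in morphine (−0.87 ± 0.25 SE, limma adjusted p = 0.0909). The kinase gene Wnk1 and the chloride importer gene Slc12a2 had log2 changes of −0.35 ± 0.17 and −0.28 ± 0.14 (SE; limma adjusted p = 0.287 and 0.295). Slc12a5, the neuronal chloride exporter gene KCC2, picked with its values in view, lay at 78.9 FPKM in saline replicate 3, 41.8 to 45.7 in the other saline libraries and 40.2 to 58.8 in morphine (−0.03 ± 0.20 SE, limma adjusted p = 0.954).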

How the data were processed

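The authors deposited 1 table of FPKM values rounded to 2 decimals, per the file headers 1 column per library. The submitters' processing notes name mm10, StringTie 1.3.1, RSEM, HISAT2, Bowtie2 2.2.8 and fastp 0.18.0. What each tool did, and which annotation was used, is not given in the sources used here. Per the labels' protocols, cDNA was primed with oligo-dT, template-switched and amplified by PCR. Of 22337 identifiers, 22232 matched GENCODE M21 (GRCm38), the source of symbols and 1-based coordinates.

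Values were taken as log2(FPKM + 1). The 12536 genes that reached an FPKM of 1 in 4 or more libraries, all 7 members among them, were fitted with limma 3.58.1 in R 4.3.3 (empirical Bayes with a mean-variance trend, no block, two-sided, adjusted p under 0.05). FPKM are not counts, so no count model was used. The fit was tested on simulated data. Single genes were also tested on their mean log2 difference by exact permutation. Members, gene lists and marker lists were chosen with earlier results of these data known. Named were the members, other subunit genes, listed pathway genes that passed or had the 3 smallest p, the most abundant striatal and cortical marker and the 3 closest profiles per member (predicted genes and pseudogenes left out). Some genes under that rule are not reported here. Alternatives changed the pseudocount, the filter, the variance model, the scaling, a replicate block, marker covariates and the libraries included.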

Additional observations from a re-analysis of the deposited data

Results flagged for a closer look

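A group of 4 libraries was singled out where its highest or lowest value lay far from the nearest other by Dixon's criterion at 95%. Chance gives about 1 in 20 groups, and 6 of 70 groups were singled out, many of which share the same values. Saline replicate 3 gave 5 of the 6. Its Gabra4 level was 77.8 FPKM, with the next saline library at 52.8. Its share of Gabra4 among the 4 alpha genes was 68.1%, with the next at 50.2%, and its share of Gabra3 was 12.2%, with the next at 21.1%. Its mean striatal marker level was 7.36 (log2 scale), with the next at 5.39, and its mean cortical marker level was 2.70, with the next at 3.98. The other was Wnk1, at 10.5 FPKM in saline replicate 1, with the next saline library at 16.1. These 6 do not cover every gene named here. Saline replicate 3 also lay far above the next saline library for Slc12a5 (78.9 against 45.7 FPKM) and Penk (1683 against 467.1 FPKM).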

How the results depend on the processing

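Gabrd kept its negative sign under all 20 alternatives and passed under 11. It missed the threshold without a filter on low values (−1.15, adjusted p = 0.0734), with a replicate block (−1.15, adjusted p = 0.0709) and with the striatal covariate (−0.27, adjusted p = 0.764), so that 0 members passed in these 3, and the cause was not tested. Leaving out 1 library gave 0 to 1 members past the threshold and a Gabrd change between −1.31 and −0.91. Over the 8 fits that leave out 1 library, Gabrb1 lay between −0.0572 and 0.0957. Gabrb1 changed sign with mitochondrially encoded genes removed (−0.0209), quantile normalization (−0.0363), the striatal covariate (−0.132), the cortical covariate (−0.0817), without saline replicate 3 (−0.0418), without morphine replicate 1 (−0.0572) and without morphine replicate 2 (−0.0166). With the striatal covariate Gabra3 changed sign to −0.27 and Gabra4 to 0.21. Gabra2, Gabra5 and Gabrb2 kept sign and side of the threshold in all 20. Correlations of same-numbered libraries' deviations over genes were 0.05, 0.04, −0.06 and −0.20, and those of differently numbered libraries ran from −0.09 to 0.11. These values do not settle whether the replicate numbers pair the libraries. The replicate block lowered the calls over all genes from 316 to 5. Among the anchoring and transport genes 0 passed without the low-value filter, without the trend, with equal medians, with quantile normalization, with the replicate block and with either covariate, and 0 to 1 passed with 1 library left out. Among the chloride and neurosteroid genes 0 to 1 passed with 1 library left out, the 1 being Tspo without saline replicate 4. Nsf kept its sign in all 20 and passed in 6. Of all genes 130 were higher and 186 lower, and 77 and 211 with mitochondrially encoded genes removed. The depth behind low values is unknown. The settings for the pathway lists, Nsf and the shares were chosen after seeing the data, and no share changed sign without any 1 library.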

Other observations

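Other cell classes that carry GABA-A receptors or surround them were measured by short marker lists. Of 10 tested interneuron markers 1 passed as lower, Chat, the acetylcholine synthesis gene of cholinergic interneurons (log2 change −1.65, limma adjusted p = 0.0449). The median was −0.15, and 3 had an unadjusted p under 0.05 (limma). Nkx2-1 was at 0 in at least 1 library. Of 7 endothelial markers 2 passed as lower, Slco1a4 (−0.79) and Ly6c1 (−0.76), and 6 had an unadjusted p under 0.05 (limma). The median of the 7 was −0.47, and their summed level was 115.7 to 134.3 FPKM in saline and 82.0 to 94.8 in morphine. Of all genes tested 1.48% passed as lower and 20.1% had an unadjusted p under 0.05 (limma). None of 8 astrocyte, 8 oligodendrocyte or 7 microglia markers passed (2, 2 and 0 at an unadjusted p under 0.05, limma), with medians of −0.40, −0.34 and −0.09. The log2 change was negative in 7 astrocyte, 8 oligodendrocyte and 5 microglia markers. The summed oligodendrocyte level was 3153 to 3589 FPKM in saline and 2012 to 3151 in morphine. The astrocyte and microglia sums overlapped between the groups. The part of these cell classes in the levels of the subunit genes was not tested.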
